A study of Homo sapiens with 8 samples.

Results

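The genes described here are 37 interferon-stimulated genes, among them ISG20, an exonuclease that degrades single-stranded RNA. A gene was included when a probe set of the array carried its name as the only gene symbol, and where it had several such probe sets the one with the highest mean over all arrays was used. This gave 36 of the 37 genes, with 61 probe sets, out of 19775 genes measured in the same way. STAT2 was not analysed here. RNA came from CCRF-CEM-C7-14, an established human T-cell acute lymphoblastic leukaemia line, cultured in medium with charcoal-stripped serum, which holds little steroid hormone. Dexamethasone, a synthetic agonist of the glucocorticoid receptor, was added at 1 µM. There were 3 arrays of untreated cells (0 h), 3 after 2 h and 2 after 10 h. The arrays are labelled as biological replicates. The labels say no more of their cultures, so p-values reflect how far these arrays differ, which may be technical. No arrays of vehicle-treated cells at 2 h or 10 h were analysed here, and the effect of dexamethasone cannot be told apart from that of time in stripped medium. The line is a single leukaemic clone, and no array of cells given interferon was analysed here.

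Interferons are secreted proteins that bind receptors on the cell surface. The receptors activate Janus kinases, which phosphorylate STAT proteins, and a complex of STAT proteins with IRF9 then binds the interferon-stimulated response element in the promoters of its target genes. Many of the targets restrict viruses: they cut or bind viral RNA, block entry or assembly, or attach the ubiquitin-like protein ISG15 to other proteins. Type II interferon acts mostly through STAT dimers on another element, the gamma-activated sequence, and through the transcription factor IRF1. ISG20 was also described under an earlier name as a gene raised by oestrogen.

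Promoter sequences are given first for the 3 genes with the largest changes that stood above background on their chosen probe set and whose windows were at hand, ISG20, RSAD2 and IFI44. The classical targets ISG15 and IFIT1 are set beside them. They are RefSeq sequences of GRCh38.p14, upstream of an annotated start site on the plus strand. Capitals mark each match to the core of the interferon-stimulated response element, GAAANNGAAA or its reverse complement.
ISG20 promoter, chr15:88638896-88638975: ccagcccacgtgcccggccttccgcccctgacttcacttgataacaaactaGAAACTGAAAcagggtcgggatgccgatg
RSAD2 promoter, chr2:6877617-6877696: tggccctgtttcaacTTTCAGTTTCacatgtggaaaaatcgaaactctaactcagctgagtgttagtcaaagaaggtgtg
IFI44 promoter, chr1:78649741-78649810: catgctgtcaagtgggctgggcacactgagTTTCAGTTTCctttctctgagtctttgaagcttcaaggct
ISG15 promoter, chr1:1013367-1013436: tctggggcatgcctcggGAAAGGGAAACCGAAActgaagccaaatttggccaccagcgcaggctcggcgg
IFIT1 promoter, chr10:89392493-89392562: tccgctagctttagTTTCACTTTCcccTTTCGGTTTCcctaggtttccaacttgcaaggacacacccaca
The ISG20 match lies at positions -69 to -60 from the start site and the RSAD2 match at -145 to -136. IFI44 has a pair of annotated starts, so its single match lies at -60 to -51 from one and at -18 to -9 from the other, and the last bases printed are past that other start. ISG15 has 2 overlapping matches and IFIT1 has 2 separate ones.

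Of the 36 genes, only ISG20 passed the test at 10 h. ISG20 was 5.65-fold higher at 10 h than in untreated cells, while at 2 h none of the 36 passed the test. A gene was called when its limma p, two-sided and adjusted by Benjamini-Hochberg over all 19775 genes, was below 0.05. At 2 h the count was 0 higher and 0 lower, where 0.0202% of all genes were called higher and 0% lower. At 10 h it was 1 higher and 0 lower, where 0.334% of all genes were called higher and 0.0202% lower. Between 2 h and 10 h it was again ISG20 alone, higher at 10 h, where 0.157% of all genes were called higher and 0.0101% lower.

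With the less strict criterion of an unadjusted limma p below 0.05, 1 of the 36 genes (ISG20) was higher at 2 h, beside 0.637% of all genes, and 0 were lower, beside 0.308%. At 10 h, 6 were higher, beside 2.15%, and 0 were lower, beside 1.29%. These were ISG20, RSAD2, IFI44, IRF9, IFI6 and GBP1. The same 6 genes had every 10 h array above every 0 h array, which 6.56% of all genes did. HERC5 was the only one of the 36 with both 10 h arrays below all 0 h arrays, which 6.51% of all genes showed. At 2 h, ISG20 alone had every array above those of 0 h, beside 2.94% of all genes, and 0 of the 36 had every array below, beside 1.1%.

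Most of the other genes stayed close to their untreated level. The log2 difference from 0 h lay within ±0.25 for 32 of 36 genes at 2 h and for 24 of 36 at 10 h. Over all genes the shares were 89.9% and 80.8%, so at 10 h a smaller share of the 36 than of all genes lay this close. The median log2 difference of the 36 genes was 0.06 at 2 h and 0.09 at 10 h, beside 0.02 and -0.02 over all genes. Leaving ISG20 out gave medians of 0.04 and 0.08. At 10 h 27 of 36 genes had positive values, beside 44.6% of all genes. Leaving out 1 array in turn gave medians from -0.01 to 0.20 at each of the 2 times. Without the array of 0 h replicate 2, 16 of 36 genes were positive at 10 h and their median was -0.01. All genes shifted with it, to 30.9% positive and a median of -0.11. The 95% interval of the 10 h difference lay within ±1 for 29 of the 36 genes. For the rest, ISG20 included, a difference of 1 or more on the log2 scale was inside or beyond the interval.

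**Figure D1:**
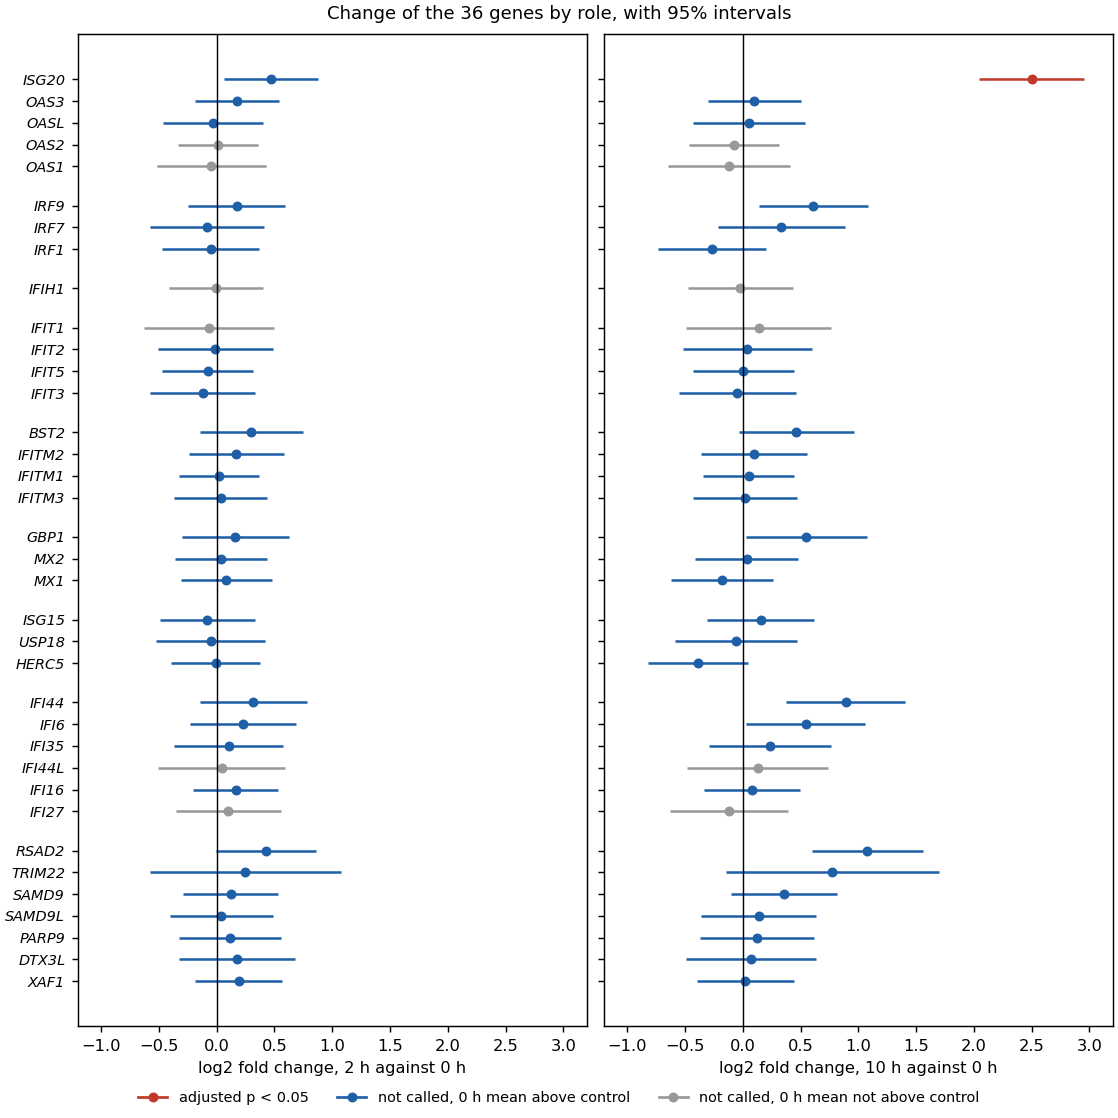
Log2 fold change at 2 h (left) and 10 h (right) against 0 h for the 36 genes, grouped by role, with 95% intervals from limma; red marks adjusted p below 0.05 and grey marks genes whose untreated mean did not exceed the highest Bacillus control. ISG20 stands at 2.50 at 10 h and no other gene is red in either panel.

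Array signal has a floor, which was read from 27 probe sets for Bacillus genes that human RNA should not bind. Their values ran from 1.52 to 4.73. Of the 36 genes, 30 had an untreated mean above 4.73. The 6 that did not were OAS1, OAS2, IFIH1, IFIT1, IFI27 and IFI44L, and for these a level could not be told from background in untreated cells. Of the 30 above 4.73, 18 had a 10 h difference within ±0.25, beside 78.1% of all genes with an untreated mean above 4.73. Positive 10 h values numbered 25 of the 30, beside 47.4% of those genes. Levels of different genes were not compared, because probe sets do not share a scale.

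Among the enzymes that act on RNA, ISG20 rose while the oligoadenylate synthetases, which make the activator of RNase L, did not pass the test. ISG20 read 7.16, 6.83 and 7.02 log2 units on the 0 h arrays. At 2 h it read 7.75, 7.40 and 7.26, and at 10 h 9.29 and 9.72. All 2 h arrays lay above all 0 h arrays, and both 10 h arrays lay above every array of the earlier times. The means were 7.00 ± 0.17 (SD, n = 3), 7.47 ± 0.26 (SD, n = 3) and 9.50 ± 0.30 (SD, n = 2). At 2 h the log2 difference from 0 h was 0.47 ± 0.19 (SE), with a 95% interval of 0.06 to 0.87, and it was not called (limma, unadjusted p = 0.0267, adjusted p = 1.00).

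At 10 h the ISG20 difference from 0 h was 2.50 ± 0.22 (SE) on the log2 scale, with a 95% interval of 2.04 to 2.95 (limma, adjusted p = 6.48e-06). It was the 10th largest increase among all genes and had the 5th smallest p. Between 2 h and 10 h ISG20 rose by 2.03 ± 0.22 (SE), a 4.09-fold difference with a 95% interval of 1.58 to 2.49 (limma, adjusted p = 0.000183). In bulk RNA, more RNA per cell and more cells that carry it cannot be told apart.

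The second ISG20 probe set gave the same picture with a somewhat larger rise. It read 7.07, 6.36 and 6.92 at 0 h, 7.76, 7.33 and 7.30 at 2 h, and 9.52 and 9.76 at 10 h. Its log2 difference from 0 h was 0.67 at 2 h and 2.85 at 10 h (limma over 41091 probe sets, adjusted p = 1.59e-05). The rise also held within subsets of arrays. One array of each time had a lower median than the rest, and these 3 are called the dimmer arrays. They gave 2.46 at 10 h, and the remaining 5 arrays gave 2.63.

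The 4 oligoadenylate synthetase genes had log2 differences at 10 h between -0.12 (OAS1) and 0.10 (OAS3), and OAS1 and OAS2 were at background in untreated cells. The 95% interval for OAS3 was -0.30 to 0.50. One further OAS2 probe set, chosen after its values were seen, moved by 0.64 at 10 h (adjusted p = 0.856), at a mean of 4.26 that does not exceed the Bacillus controls.

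**Figure D2:**
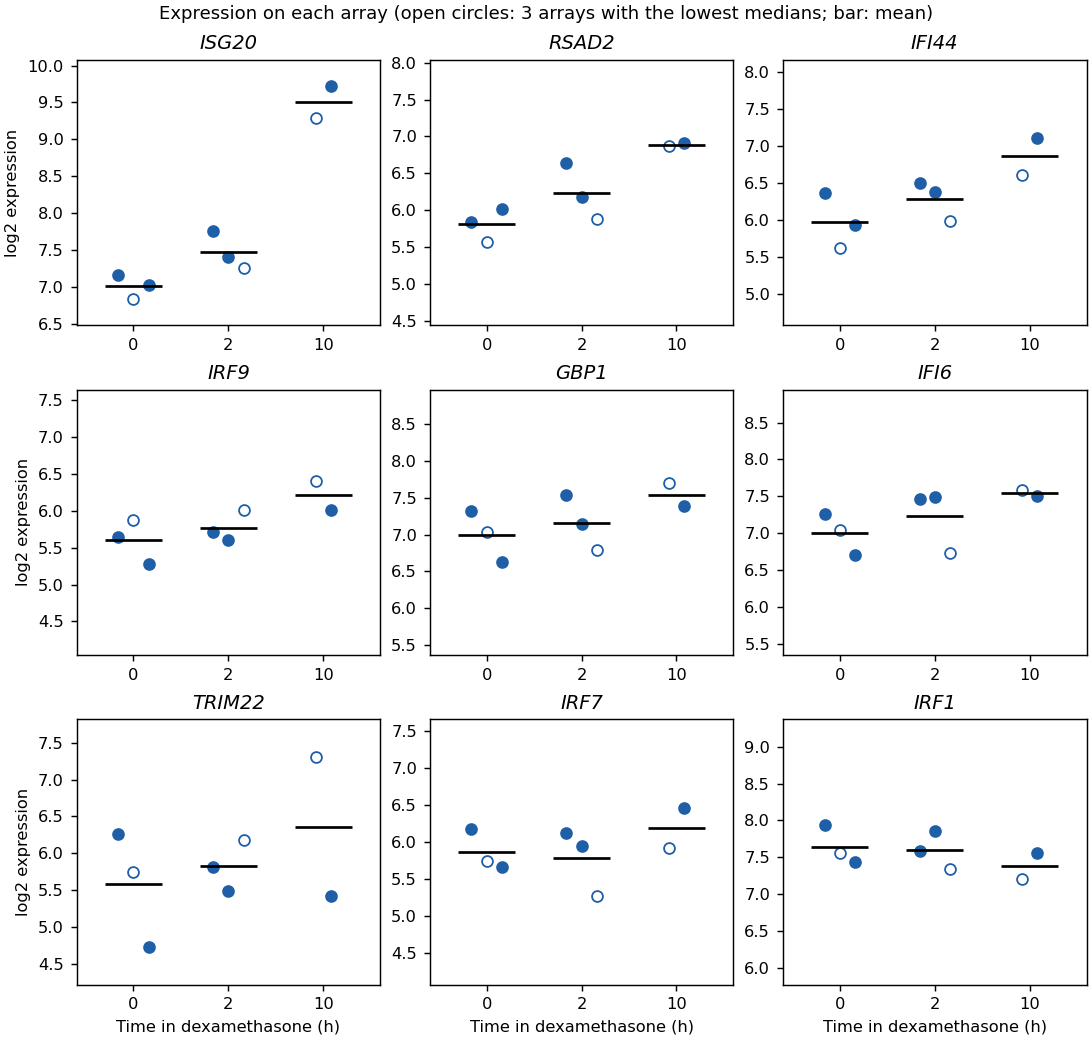
Log2 expression of 9 of the 36 genes on each of the 8 arrays by time in dexamethasone, every panel spanning the same number of log2 units, with bars at the mean of each time and open circles for the 3 dimmer arrays, those with the lowest array medians. ISG20 separates at 10 h (9.29 and 9.72), whereas the 10 h arrays of TRIM22 lie at 7.30 and 5.42.

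Of the transcription factors of the pathway, none passed the test. IRF9, the DNA-binding partner of the STAT proteins, read 5.65, 5.87 and 5.28 at 0 h, 5.71, 5.60 and 6.01 at 2 h, and 6.41 and 6.01 at 10 h. The 10 h arrays lay above all untreated arrays, and the lower of them barely exceeded the highest 2 h array. The log2 difference at 10 h was 0.61 ± 0.22 (SE), with a 95% interval of 0.14 to 1.08 (limma, adjusted p = 0.923).

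IRF7, the factor that amplifies interferon alpha production, read 6.18, 5.74 and 5.65 at 0 h, 6.12, 5.94 and 5.27 at 2 h, and 5.92 and 6.46 at 10 h. The times overlapped, and the difference at 10 h was 0.33 ± 0.26 (SE; 95% interval -0.22 to 0.88). IRF1, a factor induced by interferon gamma, read 7.94, 7.56 and 7.43 at 0 h, 7.59, 7.85 and 7.34 at 2 h, and 7.20 and 7.55 at 10 h. Its times overlapped too, with a difference at 10 h of -0.27 ± 0.22 (SE; 95% interval -0.74 to 0.20). A second IRF1 probe set gave -0.24.

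The sensor of double-stranded RNA among the 36 genes, IFIH1, was at background, with all 3 of its probe sets at or below the Bacillus controls. Its log2 difference at 10 h was -0.02. The IFIT family, whose proteins bind foreign RNA ends, showed differences at 10 h between -0.05 (IFIT3) and 0.14 (IFIT1). All 4 IFIT genes lay within ±0.25 at both times, and IFIT1 was at background. A dimmer IFIT2 probe set, at a mean of 3.18, moved by 0.46 without passing the test.

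None of the membrane proteins that hinder viral entry or release passed the test. BST2, which tethers budding virus, had a difference of 0.46 at 10 h with a 95% interval of -0.04 to 0.97, and IFITM3, which blocks fusion in endosomes, had 0.02. The 3 IFITM genes, whose sequences are close to each other, lay between 0.02 and 0.10, and their chosen probe sets carry suffixes that mark possible cross-hybridization, so they are uncertain as separate genes.

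Among the large GTPases, GBP1, which coats intracellular pathogens, read 7.32, 7.04 and 6.63 at 0 h, 7.54, 7.14 and 6.79 at 2 h, and 7.70 and 7.38 at 10 h. Both 10 h arrays exceeded all 0 h arrays by a small margin and overlapped the 2 h arrays. The difference at 10 h was 0.55 ± 0.25 (SE; 95% interval 0.03 to 1.07; limma, adjusted p = 1.00). Of its 4 probe sets, the 3 above background gave 0.49, 0.55 and 0.53, and the dim one gave -0.17. The MX genes, whose products trap viral nucleocapsids, had differences of 0.04 (MX2) and -0.18 (MX1).

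None of the 3 genes of the ISG15 conjugation system passed the test. ISG15 itself had a log2 difference at 10 h of 0.16 with a 95% interval of -0.31 to 0.62. HERC5, the main ligase for ISG15, had -0.39 with an interval of -0.82 to 0.04. Its arrays read 8.44, 8.27 and 8.72 at 0 h, 8.47, 8.27 and 8.66 at 2 h, and 8.02 and 8.16 at 10 h, so the 10 h arrays lay below all others. USP18, which removes ISG15 and also restrains the receptor, had -0.06.

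Within the genes named IFI for interferon-induced, IFI44 and IFI6 had the largest values, and neither passed the test. IFI44, a cytoplasmic antiviral protein, read 6.36, 5.62 and 5.93 at 0 h, 6.50, 6.38 and 5.99 at 2 h, and 6.60 and 7.12 at 10 h. Both 10 h arrays lay above all earlier ones. The difference at 10 h was 0.89 ± 0.24 (SE), a 1.85-fold change with a 95% interval of 0.37 to 1.41 in log2 units (limma, adjusted p = 0.282). A second probe set, whose mean of 4.23 was not above background, gave 0.10.

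IFI6, a protein of intracellular membranes that inhibits apoptosis, read 7.25, 7.04 and 6.71 at 0 h, 7.46, 7.49 and 6.73 at 2 h, and 7.58 and 7.50 at 10 h. The 10 h arrays were above all others, and the lower of them barely exceeded the highest 2 h array. The difference at 10 h was 0.54 ± 0.24 (SE; 95% interval 0.03 to 1.05). The other IFI genes lay between -0.12 (IFI27, at background) and 0.24 (IFI35).

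Of the remaining effectors, RSAD2 came nearest to a call. RSAD2, also known as viperin, makes a nucleotide that ends viral RNA chains. It read 5.83, 5.57 and 6.02 at 0 h, 6.64, 6.18 and 5.88 at 2 h, and 6.87 and 6.91 at 10 h. Both 10 h arrays lay above all earlier arrays, and the 2 h arrays overlapped those of 0 h. The difference at 10 h was 1.08 ± 0.23 (SE), a 2.11-fold change with a 95% interval of 0.60 to 1.56 in log2 units, and it fell just short of the threshold (limma, adjusted p = 0.0530). The second RSAD2 probe set gave 0.97.

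The side of the threshold on which RSAD2 fell depended on the analysis. It was called in 11 of 20 alternatives, with adjusted p between 0.00863 and 0.506 and log2 differences between 0.96 and 1.19 over the 20. Leaving out 1 array was enough to bring a call: the adjusted p was 0.0301 without 0 h replicate 3, 0.0247 without 2 h replicate 1 and 0.0185 without 2 h replicate 3. The dimmer arrays alone gave 1.30, and the remaining 5 gave 0.98.

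TRIM22, a ubiquitin ligase that restricts several viruses, had no settled direction. It read 6.27, 5.75 and 4.73 at 0 h, 5.82, 5.49 and 6.18 at 2 h, and 7.30 and 5.42 at 10 h. The 2 arrays at 10 h lay on either side of most of the others. The difference at 10 h was 0.78 ± 0.44 (SE; 95% interval -0.15 to 1.70), and without 10 h replicate 1 it was -0.17. The dimmer arrays alone gave 1.55, and the remaining 5 gave -0.08. The other genes of this group lay between 0.02 (XAF1, a proapoptotic protein) and 0.36 (SAMD9, which restricts poxviruses).

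From 2 h to 10 h, the genes with every 10 h array above every 2 h array were ISG20, IRF9, IFI6, IFI44 and RSAD2. These were 5 of 36, beside 5.43% of all genes. OAS2, MX1 and HERC5 had the 10 h arrays below, 3 of 36 beside 9.29%. With an unadjusted limma p below 0.05 there were 3 of 36 higher, beside 1.38% of all genes, and 0 lower, beside 1.77%. Of these, besides ISG20, the log2 difference between these times was 0.65 for RSAD2 and 0.57 for IFI44, neither called (limma, adjusted p = 1.00 for each). The 3 comparisons share arrays, so their values are not independent of each other.

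**Figure D3:**
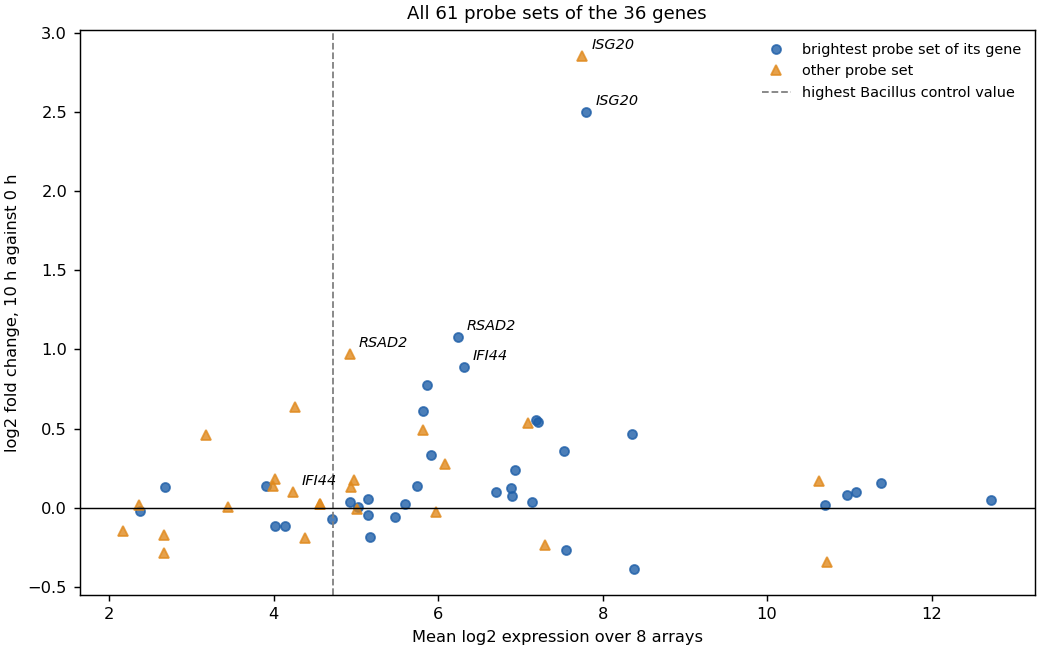
Mean log2 expression over the 8 arrays (horizontal) against log2 fold change at 10 h (vertical) for all 61 probe sets of the 36 genes, with circles for the probe set used per gene, triangles for the others and a dashed line at the highest Bacillus control, 4.73. Both ISG20 probe sets (2.50 and 2.85) and both RSAD2 probe sets (1.08 and 0.97) lie above zero to the right of the line.

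Probe sets of 1 gene did not always share a sign. Of the 18 genes with more than 1 probe set, 8 had 10 h differences of both signs. Over probe sets whose mean exceeded the Bacillus controls, 42 of all 61, 10 genes had more than 1, and 3 of these (IFI16, PARP9 and XAF1) had both signs. IFI16, a DNA sensor, ran furthest, from -0.34 to 0.17. Tested as probe sets over 41091, 2 of the 61 were called at 10 h, both of ISG20, where 0.321% of all probe sets were called higher. The same 2 were called higher between 2 h and 10 h, beside 0.141%. No probe set of the 36 genes was called lower, beside 0.0122% of all at 10 h and 0.00487% between 2 h and 10 h. At 2 h the count was 0 in each direction, beside 0.0122% higher and 0% lower, with limma.

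The element that defines interferon targets was common in these promoters. The genes were listed as interferon-stimulated, so its frequency goes with that choice and says nothing of these cells. RefSeq windows of the 250 bases upstream of a start were at hand for 28 of the 36 genes, 37 windows in all because some genes have several starts. GAAANNGAAA, on either strand, stood in 23 of the 37 windows and in 20 of the 28 genes. In all 35116 windows of that length the share, by window and not by gene, was 3.02%. The gamma-activated sequence TTCNNNGAA stood in 9 of 37 windows, beside 6.57% of all. The glucocorticoid response element GNACANNNTGTNC stood in 0 of the 37, beside 0.327% of all, which says only that these letters are not in these short windows. Windows of 1 gene can overlap and share a match, and a GAAANNGAAA match can overlap one of TTCNNNGAA.

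Changes of the genes with and without the core are described here, and a link between core and change was not tested. Of the genes with a core, IFIH1, IFIT1, IFI27 and IFI44L were at background in untreated cells. OAS1, which has none, was at background too. The 20 genes with a core had 10 h differences from -0.39 (HERC5) to 2.50 (ISG20), with a median of 0.13, and 15 were positive. The 8 genes without one had a median of 0.08, from -0.27 (IRF1) to 0.61 (IRF9), with 6 positive. The ISG20, RSAD2 and IFI44 promoters printed above carry 1 match each, and those of ISG15 and IFIT1, whose 10 h differences were 0.16 and 0.14, carry 2.

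Other parts of the pathway were examined with lists of genes that act before, beside or after the 36. Of 18 measured interferon genes, 17 were at background and none was called at any time. IFNK and IFNA8 had the smallest p at 10 h, with differences of -0.27 and -0.28. The interferon gene above background was IFNA17, named after its values were seen. Its log2 difference at 10 h was 0.05, from an untreated mean of 5.66, on a probe set marked for possible cross-hybridization. The interferon alpha genes are close copies of each other, so the value is uncertain as that of IFNA17.

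One signalling gene was called higher at 10 h among 10 measured receptors, kinases and STAT genes, beside 0.334% of all genes. JAK2, the kinase of the interferon gamma and many cytokine receptors, read 6.53, 5.79 and 6.15 at 0 h, 6.62, 6.42 and 6.06 at 2 h, and 7.18 and 7.60 at 10 h. Both 10 h arrays lay above all others. The difference at 10 h was 1.24 ± 0.24 (SE), or 2.36-fold (limma, adjusted p = 0.0260). It was called in 14 of 20 alternatives. The call was lost without 0 h replicate 2 (limma, adjusted p = 0.104). With the mean of all probe sets the difference was 0.86 (adjusted p = 0.0833). With probe sets lacking a cross-hybridization suffix preferred it was 0.96 (adjusted p = 0.326), so the called value rests on a suffixed probe set. Fits that left 1 array at 10 h gave 1.45 without 10 h replicate 1, 1.03 without 10 h replicate 2 and 1.27 without the 3 dimmer arrays. The median of the 10 genes at 10 h was 0.14, and all 10 were above background.

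One of 10 measured brakes on the pathway was called higher at 10 h, beside 0.334% of all genes. SOCS1, which blocks Janus kinases and marks them for destruction, read 6.08, 5.79 and 5.22 at 0 h, 7.35, 7.35 and 6.45 at 2 h, and 8.34 and 8.23 at 10 h. The 3 times did not overlap. The difference at 2 h was 1.36 ± 0.25 (SE), not called (limma, adjusted p = 0.174) but called without 2 h replicate 3, where it was 1.66 (adjusted p = 0.00401). At 10 h it was 2.59 ± 0.28 (SE), or 6.04-fold (limma, adjusted p = 6.39e-05), and it was called in 20 of 20 alternatives. Averaging all SOCS1 probe sets lowered it to 1.11 (adjusted p = 0.00628). Against 2 h the difference was 1.24, not called (adjusted p = 0.152) but called without 0 h replicate 3 (adjusted p = 0.0368). The other 9 brakes lay between -0.33 (PTPN2) and 0.24 (PTPN6) at 10 h.

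Sensors and adaptors that act before interferon, 16 measured, held no called gene. STING1, the adaptor for cytosolic DNA, had the smallest p, with a difference at 10 h of 0.64 ± 0.22 (SE; limma, adjusted p = 0.730). It was followed by ZBP1, a sensor of Z-form nucleic acids, with -0.33 at background. Among 38 further interferon-stimulated genes none was called either, and their median at 10 h was 0.01. The 2 with the smallest p had negative values, -0.69 ± 0.24 (SE; adjusted p = 0.846) for PNPT1, a mitochondrial RNA exonuclease, and -0.55 ± 0.24 (SE; adjusted p = 1.00) for EIF2AK2, the kinase that halts translation on double-stranded RNA.

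None of the relatives of ISG20 passed the test. The 5 measured exonuclease relatives were all above background, and their 10 h differences lay between -0.25 and 0.05, with ISG20L2 at -0.25 and AEN at -0.17. AEN is also the neighbour of ISG20 on one side in RefSeq order, and the neighbour on the other side, ACAN, had -0.25. CMPK2, which neighbours RSAD2 and is itself an interferon target, had 0.01, and RNF144A on the other side had 0.64 (limma, adjusted p = 0.885). IFI44L, which neighbours IFI44, had 0.13 at background.

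**Figure D4:**
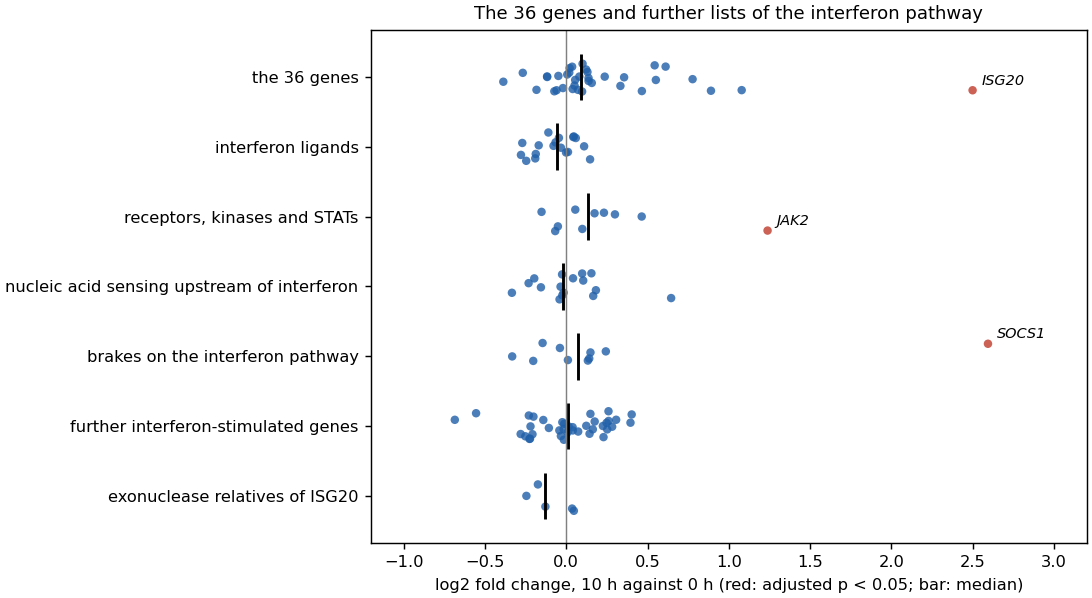
Log2 fold change at 10 h against 0 h for each of the 36 genes and for the genes of 6 further lists of the interferon pathway, with points spread vertically for visibility, bars at list medians and red for adjusted p below 0.05. Only ISG20 (2.50), JAK2 (1.24) and SOCS1 (2.59) are red, and the list medians lie between -0.13 and 0.14.

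Genes known to respond to glucocorticoids were higher at 10 h: TSC22D3 had a log2 difference of 4.30 at 10 h (limma, adjusted p = 7.22e-09) and FKBP5 one of 2.16 (adjusted p = 3.67e-05). Of the T-lineage markers, 10 of 10 had an untreated mean above background, 9 of 10 were above it on each 10 h array, and none was called. The exception at 10 h was CD2, at a mean of 4.56. Above background were also 3 of 4 B-cell, 2 of 4 monocyte, 4 of 5 plasmacytoid dendritic cell, 2 of 5 natural killer cell and 4 of 5 epithelial or stromal markers, none of them called at any time. Of the B-cell markers, CD79A, part of the B-cell receptor and named after its values were seen, had both 10 h arrays above all 0 h arrays. Its log2 difference at 10 h was 0.69 ± 0.21 (SE; limma, unadjusted p = 0.00498, adjusted p = 0.518), and its part in the results was not tested. CD79B went the other way, with -0.28 at 10 h and both 10 h arrays below all 0 h arrays. The remaining B-cell markers, PAX5 and MS4A1, had 0.05 and -0.04. Of the plasmacytoid dendritic cell markers, LILRA4, IL3RA, TCF4 and IRF8 were above background and CLEC4C was not, and their part in the results was not tested. The mean level of the 5 natural killer markers was 4.49 to 4.74 on the 0 h arrays, 4.44 to 4.80 at 2 h, and 4.75 and 4.94 at 10 h. The 2 h and 10 h arrays overlapped in this mean, and its part in the results was not tested.

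All array medians lay between 4.68 and 5.01. Per array, the median deviation of the 36 genes from their own means, less that of all genes, was 0.07, -0.04 and -0.27 at 0 h. It was 0.11, -0.05 and -0.09 at 2 h, and 0.11 and 0.05 at 10 h. The lowest of these values belonged to 0 h replicate 3. The number of arrays, 2 or 3 at each time, limits the precision of every value.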

How the data were processed

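Biotin-labelled material made from total RNA was hybridised to 8 single-colour arrays of 54675 probe sets. The authors deposited 1 log2 value for each probe set and array, made with RMA, per the submitters' processing notes. Its version, and whether all arrays were processed together, are not given in the sources used here. Array medians ran from 4.68 to 5.01, where joint processing with RMA would leave them nearly equal. The method also compresses small differences near background. The platform annotation gave 41091 probe sets a single gene symbol.

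A linear model with 1 mean for each time was fitted to all 8 arrays together (limma 3.58.1 under R 4.3.3, lmFit and eBayes), which left 5 residual degrees of freedom. Two-sided p-values were adjusted over all 19775 genes by Benjamini-Hochberg. Promoters were searched with Python 3.11.15.

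The genes and lists were chosen with earlier results of these data known, so no test over a list was made. Values on every array are given for ISG20, for called genes, for genes above the Bacillus controls that moved by at least 0.5 in any comparison, and for the regulators. Array values of HERC5 are given too, outside this rule. Other genes are given by role, naming the highest and lowest. From further lists, called genes or else the 2 with the smallest p are named.

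Whether same-numbered arrays are paired could not be settled. Over all genes, correlations of deviations in the 7 same-numbered pairs ran from -0.27 to 0.26, and 1 exceeded 0.1. Deviations of the 2 arrays at 10 h mirror each other, so pairs with 10 h cannot decide it. At most 0.269% of values were identical between any 2 arrays. In all 21 alternatives were tried. Those for the further lists and for the probe sets were applied after the data had been seen.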

Additional observations from a re-analysis of the deposited data

How the results depend on the processing

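ISG20 was called at 10 h against 0 h in 20 of 20 alternatives with a test (2.28 to 2.71, adjusted p up to 0.00216), and against 2 h in 20 of 20 (1.82 to 2.25, up to 0.0259). At 2 h it was called in 0 of 20 (0.33 to 0.57). Genes of the 36 called higher at 10 h numbered 1 to 2 when 1 array was left out. They were 2 (ISG20 and RSAD2) with median centring, quantile normalization, the mean of all probe sets, the filter on dim genes, trended and robust variances, array weights or the compared times alone, and 3 (with IFI44 at 0.97, adjusted p = 0.0187) when the 3 dimmer arrays were given a block of their own. Probe sets called at 10 h then numbered 4, against 2. With the replicate block, ISG20 was 2.45 and RSAD2 1.04 (adjusted p = 0.106), 1 gene of the 36 was called, and SOCS1 became called at 2 h.

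Positive values at 10 h numbered 16 to 30 when 1 array was left out, where 30.9% to 59.2% of all genes were positive. With array weights they numbered 16, beside 36.8% of all genes. The median against 2 h was 0.31 in the 3 dimmer arrays alone, beside 0.04 over all genes, and these arrays allow no test. Of the further lists, 1 gene was called at 2 h without 2 h replicate 3, with trended and robust variances, array weights or the replicate block (range 0 to 1 over arrays left out). At 10 h 1 was called, not 2, with the mean of all probe sets, with probe sets lacking a suffix or without the 3 dimmer arrays (range 1 to 2). Against 2 h, 1 was called with quantile normalization, trended and robust variances, the compared times alone or the block for the dimmer arrays (range 0 to 1).

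Reversed values were those of genes not called. At 2 h, where leaving out 1 array gave -0.18 to 0.10 for IRF1 and -0.25 to 0.17 for IRF7, IRF1 gave 0.10, 0.08 and 0.032, and IRF7 0.08, 0.17 and 0.11, without 0 h replicate 1, 2 h replicate 3 or the 3 dimmer arrays. GBP1 at 2 h gave -0.021 and -0.030 without 0 h replicate 3 or 2 h replicate 1 (arrays left out: -0.030 to 0.35). IFI44 at 2 h gave -0.053 on its probe set without a suffix. TRIM22 at 2 h gave -0.18 without 0 h replicate 3 and -0.32 with array weights (arrays left out: -0.18 to 0.59). Without 10 h replicate 1 or the 3 dimmer arrays it gave -0.17 and -0.083 at 10 h, and -0.41 and -0.24 against 2 h (arrays left out: -0.17 to 1.72 and -0.41 to 1.47). The cause was not tested.

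Over all genes, calls higher at 10 h numbered 66 and ranged from 29 (without the 3 dimmer arrays) to 103 (block for them). Against 2 h they numbered 31 and ranged from 11 to 47, and at 2 h they numbered 4 and ranged from 1 to 24. Signal near the Bacillus controls limits the 6 dim genes, and 2 arrays at 10 h limit every later value.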
